A study of Mus musculus with 11 samples.

Results

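Hormones from the parathyroid, pituitary, thyroid, adrenal, ovary and pancreas, and the active form of vitamin D, reach bone through receptors, and 8 of the genes for these receptors were followed in RNA of whole distal tibiae from control mice and from mice whose BM adipocytes (BMAds) were killed with a toxin. The genes are Pth1r, Vdr, Esr1, Nr3c1, Insr, Ghr, Thra and Rxra. They were picked by gene symbol from the 22600 genes of the merged count table, and all 8 were among the 16496 genes that passed the filter on low counts.

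Libraries came from 4 control mice, whose genotype is labelled BMAd-WT, and from 7 BMAd-DTA mice, with 1 library per mouse. All were 24 weeks old, of the strain C57BL6/SJL, and fed ad libitum without treatment. Every mouse, controls included, carried Osterix-FLPo and the FLPo-dependent Adipoq-Cre allele (FAC), so that Cre is made from the Adipoq locus only in cells whose lineage has expressed FLPo. BMAd-Cre mice are known to have low circulating adiponectin, which both groups therefore share. BMAd-DTA mice had in addition the ROSA-DTA allele, from which Cre removes a STOP cassette so that diphtheria toxin A is made. Cre is active in BMAds and in a minor share of the adipogenic precursors of the marrow, and works less well in young mice. The bone was cut at the junction of tibia and fibula and powdered whole, so bone cells, marrow, vessels and attached tissue are mixed in each library. No label names the sex of the mice, although the study's legends speak of males. Xist, the RNA that coats an inactive X, was counted 13810 to 20260 times per library. Every library thus held the RNA typical of female cells, which is at odds with the legends.

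The libraries held 16969529 to 18637663 counts on genes in controls and 17128711 to 18432805 in BMAd-DTA mice, so depth did not separate the groups. The receptors had between 214 counts, for Esr1 in 1 control library, and 2874 counts, for Pth1r in 1 BMAd-DTA library. Levels are given as CPM, that is counts per 1000000 counts of library size after TMM scaling in edgeR. In bulk RNA, fewer cells of a type and less RNA per cell cannot be told apart.

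The receptors belong to 3 kinds. Pth1r and Ghr, and also Insr, sit in the cell membrane, Pth1r as a G protein-coupled receptor that raises cyclic AMP, Ghr as a cytokine-type receptor that acts through Jak2 and Stat5, and Insr as a tyrosine kinase. Vdr, Esr1, Nr3c1 and Thra encode nuclear receptors, a kind that binds both hormone and DNA, and Rxra is the shared partner with which Vdr and the thyroid hormone receptors pair. Osteoblasts and osteocytes are known targets of PTH, vitamin D, oestrogen and glucocorticoids, while cartilage, marrow stroma and adipocytes also answer to growth hormone, thyroid hormone and insulin.

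In BMAd-DTA tibiae the mean levels of Pth1r and Vdr were 1.82 and 1.74 times those of controls, the mean of Esr1 was 1.29 times, and the mean of Ghr was 0.645 times the control mean. Thra and Rxra lay close to their control levels, and Nr3c1 and Insr lay slightly under them. At an adjusted p under 0.05 (quasi-likelihood test of edgeR, Benjamini-Hochberg adjustment over all genes) 0 of the 8 were called, against 13 of 16496 genes, or 0.0788% of them. At an unadjusted p under 0.05 in the same test 4 receptors passed, namely Pth1r, Vdr, Esr1 and Ghr, against 16.4% of all genes tested. Of all 16496 genes, 1301 were higher and 1407 lower at that threshold. DESeq2 with its default settings called 841 genes (5.1%) at an adjusted p under 0.05, and 2 of the receptors, Pth1r and Vdr, were among them. Only for Vdr did the CPM of the groups not overlap, which held for 2.81% of all genes tested.

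**Figure D1:**
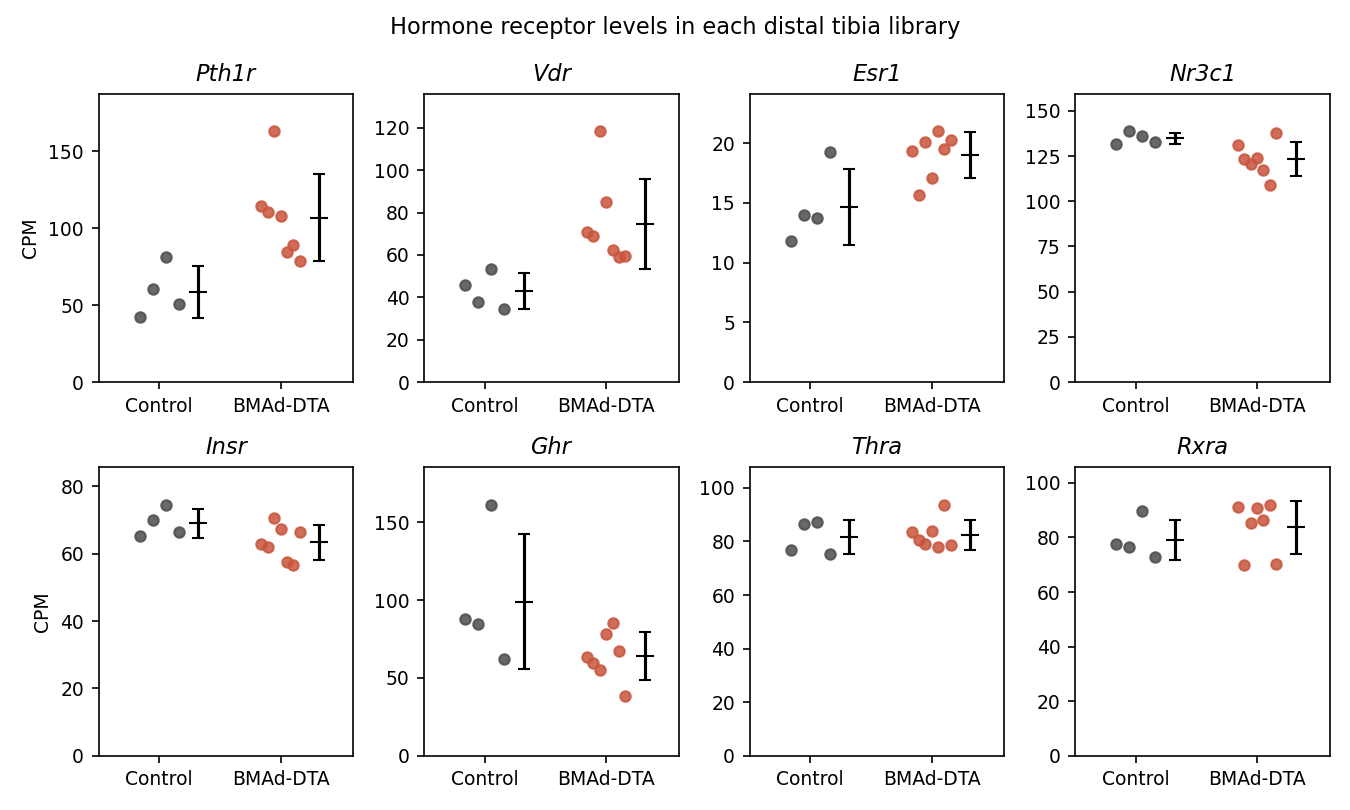
CPM of the 8 receptors (vertical axis, from 0) in 4 Control and 7 BMAd-DTA libraries, 1 point per mouse, with mean and SD beside the points. Vdr shows no overlap between the groups, and the highest Ghr value, 161 CPM, belongs to a control.

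Pth1r encodes the receptor shared by PTH and PTH-related protein, and lies on chromosome 9, 110722085 to 110747145 of GRCm38 on the minus strand (ENSMUSG00000032492). Its level was 42.2, 60.2, 81.2 and 50.8 CPM in Control replicates 1 to 4. In BMAd-DTA mice the lowest was 78.8, the median 108 and the highest 163 CPM. Of the 7 BMAd-DTA libraries, 6 were above every control, and replicate 7, the lowest, was just under the highest control, Control replicate 3. The means were 58.6 ± 16.8 CPM (SD, n = 4) and 107 ± 28.4 CPM (SD, n = 7), a log2 fold change of 0.87 with a standard error of 0.21 and a 95% confidence interval of 0.42 to 1.32. The adjusted p was 0.0774 in the edgeR test and 0.00143 in DESeq2. A two-sided exact permutation test of the means over all 330 splits of the 11 mice gave p = 0.0121, where 0.00303 is the smallest p it can give. Without Control replicate 3 the log2 fold change was 1.07 and the adjusted p in edgeR 0.0393, which is the 1 case among the 11 single omissions in which a receptor was called. Pth1r shares 95 exon bases with Myl3, a myosin gene on the opposite strand, and reads on that strand were 0.253% of the stranded reads at Pth1r.

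Vdr encodes the nuclear receptor of vitamin D and lies on chromosome 15, 97854425 to 97910630 of GRCm38 on the minus strand (ENSMUSG00000022479). The 4 controls had 46.0, 38.0, 53.6 and 34.5 CPM. Among BMAd-DTA mice the values ran from 58.9 over a median of 68.8 to 118 CPM, the highest again in replicate 3, so that every BMAd-DTA mouse was above every control. The group means were 43.0 ± 8.52 CPM (SD, n = 4) and 74.8 ± 21.2 CPM (SD, n = 7). The log2 fold change was 0.80 with a standard error of 0.19 and a 95% confidence interval of 0.38 to 1.21. It had an adjusted p = 0.0798 in edgeR's quasi-likelihood test, an adjusted p = 0.00196 in DESeq2 and p = 0.00606 in the two-sided exact permutation test. Leaving out single mice gave log2 fold changes of 0.65 to 0.93, and none of these fits called Vdr in edgeR's test.

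**Figure D2:**
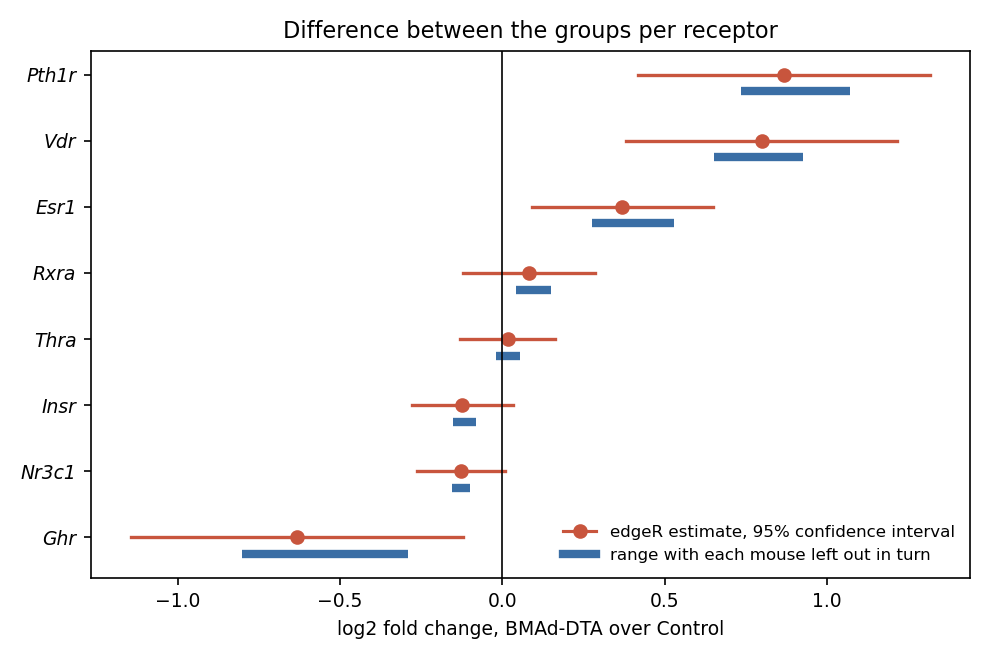
Log2 fold change of each receptor (horizontal axis, BMAd-DTA over Control) from edgeR, with its 95% confidence interval in red and the range over the 11 fits that leave out 1 mouse in blue. The intervals of Pth1r, Vdr, Esr1 and Ghr do not contain 0, and the blue range of Thra crosses 0.

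The DNA before the start sites of Pth1r and Vdr is shown because these are the receptors whose levels moved together across the mice. RefSeq lists 3 start windows for Pth1r and 1 for Vdr on GRCm38.p6, and the 100 bases before each start are printed from 5′ to 3′ on the gene's strand, with capitals marking GC boxes (GGGCGG on either strand). The Pth1r stretches lie at chr9:110747146-110747245, chr9:110743687-110743786 and chr9:110742611-110742710, and the Vdr stretch at chr15:97908297-97908396, all on the minus strand.
Pth1r, most upstream start: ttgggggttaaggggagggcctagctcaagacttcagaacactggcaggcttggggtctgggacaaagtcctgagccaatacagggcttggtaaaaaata
Pth1r, middle start: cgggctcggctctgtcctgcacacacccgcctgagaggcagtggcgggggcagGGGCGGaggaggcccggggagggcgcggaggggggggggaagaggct
Pth1r, most downstream start: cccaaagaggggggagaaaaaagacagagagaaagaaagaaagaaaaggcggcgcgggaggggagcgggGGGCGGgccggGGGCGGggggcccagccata
Vdr: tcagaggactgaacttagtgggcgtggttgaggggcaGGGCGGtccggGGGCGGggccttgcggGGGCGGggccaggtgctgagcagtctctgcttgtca

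These stretches hold 0, 1 and 2 GC boxes for Pth1r and 3 for Vdr, and 52%, 78%, 66% and 69% of their bases are G or C. RefSeq windows of 300 bases, 250 before and 50 after the start, were read for 5 of the 8 receptors, in 10 windows. No window was found for Insr and Thra, and the windows of Nr3c1 were not analysed here. A GC box was present in 35.7% of all 32851 such windows. Neither the Pth1r nor the Vdr windows held a TATA box (TATAAA, in 13.6% of all windows), a RUNX core (TGTGGT, in 16.8%), a nuclear receptor motif (AGGTCA, in 16.3%) or a cyclic AMP response element (TGACGTCA, in 1.79%), each searched on both strands. The second Rxra window held 2 copies of the nuclear receptor motif and the second Ghr window 1 TATA box. Counts per gene do not separate start sites, so which of the Pth1r starts was in use was not measured, and a match of letters says nothing about binding.

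Across the 11 libraries the log2 CPM of Pth1r and Vdr had a Pearson r of 0.91 and a Spearman rho of 0.90, and r was 0.95 without the 2 libraries farthest from the Pth1r median. After each group's mean was subtracted r was 0.77, and within the 7 BMAd-DTA mice it was 0.92. It was the highest of the 28 correlations computed between the receptors, all of which share library depth and cell makeup and are given as a description. Among 11932 genes with a mean of at least 5 CPM, the patterns most like Pth1r were those of Creb3l1 (r = 0.982), Mdfi (r = 0.982) and Shc2 (r = 0.982). For Vdr they were Mrc2 (r = 0.945), St6galnac4 (r = 0.945) and Sema7a (r = 0.944).

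Markers of bone-forming cells, and also those of osteoclasts, moved with both receptors. All 12 osteoblast markers had a higher fitted level in BMAd-DTA mice, 1 of them, Alpl, passed edgeR's test and 8 passed in DESeq2, and their summed level was 3975 to 15613 CPM in controls and 18561 to 41764 CPM in BMAd-DTA mice. The low end is that of Control replicate 1 alone, since the other controls had 13046 to 15613 CPM. The osteocyte markers summed to 793 to 888 CPM in controls and 936 to 1309 CPM in BMAd-DTA mice, with 8 of 10 higher, 0 passing in edgeR, 7 at an unadjusted p under 0.05 and 6 in DESeq2. Osteoclast markers ran from 2260 to 4021 CPM and from 2660 to 5520 CPM, with 9 of 10 higher. In edgeR 0 of them passed after adjustment, 6 were higher and 1 lower at an unadjusted p under 0.05, and DESeq2 called 1, Atp6v0d2. Of all 16496 genes tested, 16.4% passed at an unadjusted p under 0.05 in edgeR and 5.1% in DESeq2. Phex is on both the osteoblast and the osteocyte list, and no marker of these lists was at 0 in all libraries. A score, the mean log2 CPM of a list, had an r with Pth1r of 0.94 for osteoblast markers (0.83 after subtraction of group means), 0.91 for osteoclast markers (0.90) and 0.83 for osteocyte markers (0.66). For Vdr the r was 0.88 with the osteocyte score (0.77), 0.82 with the osteoclast score (0.72) and 0.76 with the osteoblast score (0.37), an order that the ranks reversed, with rho at 0.72, 0.79 and 0.92. Without the 2 libraries farthest from the Vdr median these r were 0.68, 0.68 and 0.72, so none of the 3 scores led by every measure. These are among 104 correlations computed between receptors and 13 marker scores. Taken relative to the osteoblast score, Pth1r differed between the groups by -0.18 and Vdr by -0.27 on the log2 scale, both less than the SD among controls, 0.31 and 0.66, and for each 2 of 7 BMAd-DTA mice were below every control. Relative to the osteocyte score the differences were 0.51 and 0.42, with 6 and 7 of the 7 BMAd-DTA mice above every control. With the osteoblast score as a covariate in edgeR, an alternative added after seeing the data, the log2 fold change was 0.098 for Pth1r and 0.45 for Vdr, and neither passed the test. That score was 6.81 to 8.23 in controls and 8.44 to 9.16 in BMAd-DTA mice, without overlap. The fit therefore cannot tell the score apart from genotype, and no conclusion is drawn from it.

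**Figure D3:**
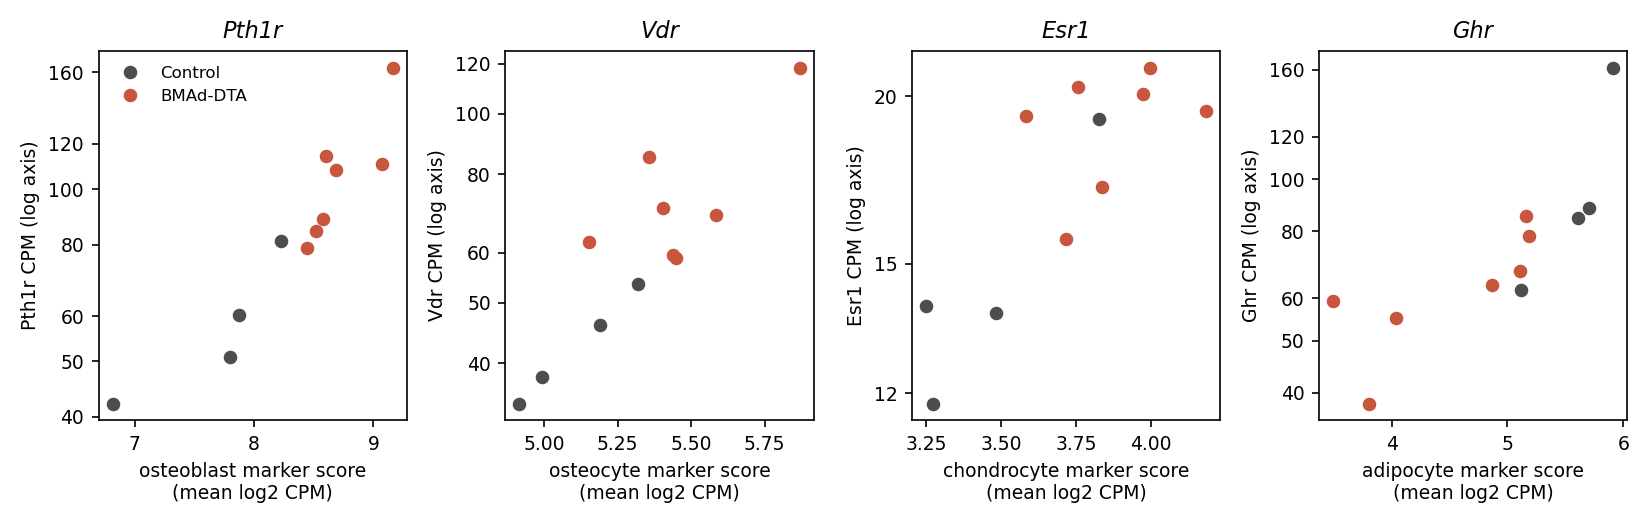
CPM of Pth1r, Vdr, Esr1 and Ghr (vertical axes, log scale) against the mean log2 CPM of a marker list in the same library (horizontal axes), 1 point per mouse. Pth1r runs with the osteoblast score through both groups (r = 0.94), and Ghr with the adipocyte score (r = 0.81).

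Genes that act with or after Pth1r were described by a list of 26 PTH signalling genes, of which 25 were tested. After adjustment 0 passed in edgeR, and 4 were higher and 3 lower at an unadjusted p under 0.05. DESeq2 called Sost as higher and Sik2 as lower. Among all 16496 genes tested, 16.4% passed at that unadjusted threshold and DESeq2 called 5.1%. The median log2 fold change of the list was 0.024, beside 0.0018 over all genes tested. Sost, the Wnt inhibitor of osteocytes that PTH represses, was at 125 ± 22.3 CPM in controls (SD, n = 4) and 216 ± 46.8 CPM in BMAd-DTA mice (SD, n = 7), with all 7 above every control and an adjusted p = 0.0675 in edgeR. Such a lack of overlap between the groups held for 2.81% of all genes tested, and Sost is also among the osteocyte markers. Sik2, a kinase inhibited by cyclic AMP signalling, had 67.2 ± 6.63 CPM in controls and 49.9 ± 5.69 CPM in BMAd-DTA mice (SD, with n = 4 and n = 7). Mmp13, a collagenase induced by PTH, had the largest log2 fold change of the list, 0.92, with an adjusted p = 0.271 in edgeR. Pthlh, which encodes the PTH-related protein, was low in both groups, at 1.10 ± 0.51 and 1.31 ± 0.35 CPM (SD, with n = 4 and n = 7). Pth2r was not analysed here.

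The vitamin D list held 22 genes, of which 15 were tested. In edgeR none passed after adjustment and 3 passed at an unadjusted p under 0.05, all higher, and DESeq2 called Bglap2 and Lrp5 as higher. Shares over all 16496 genes tested were 16.4% at that unadjusted threshold and 5.1% in DESeq2. The median log2 fold change was 0.17. Bglap and Bglap2, which encode osteocalcin, had log2 fold changes of 1.28 and 1.24, with an adjusted p = 0.151 and an adjusted p = 0.113 in edgeR. They are near-identical copies whose reads are hard to assign, and both are among the osteoblast markers. Lrp5, a Wnt co-receptor, was at 108 ± 6.14 CPM in controls and 134 ± 11.3 CPM in BMAd-DTA mice (SD, with n = 4 and n = 7). All 7 were above every control, where 2.81% of all genes tested had no overlap in either direction. Fgf23, the phosphate hormone of osteocytes, had the smallest log2 fold change, -1.42, from 0 to 90 counts per library and an adjusted p = 0.315 in edgeR. That value rests on Control replicate 1, at 4.96 CPM, since the other 3 controls had 0.78 to 1.18 and the BMAd-DTA mice 0 to 1.29 CPM. Cyp24a1, the vitamin D-degrading enzyme that Vdr induces, had 0 to 9 counts per library and was under the filter, as was Cyp27b1, the activating enzyme, with 0 to 7.

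Esr1 encodes oestrogen receptor alpha (chromosome 10, 4611593 to 5005614 of GRCm38, plus strand, ENSMUSG00000019768) and had the lowest counts of the 8 receptors. Control levels were 11.8, 14.0, 13.8 and 19.2 CPM. BMAd-DTA levels ran from 15.6 to 21.0 with a median of 19.5 CPM. Control replicate 4 lay among the BMAd-DTA mice, and the other 3 controls were below all of them. The log2 fold change was 0.37 with a standard error of 0.13, a 95% confidence interval of 0.092 to 0.65 and an adjusted p = 0.171 in edgeR's quasi-likelihood test, and the two-sided exact permutation test gave p = 0.0303. The group means were 14.7 ± 3.19 CPM (SD, n = 4) and 19.0 ± 1.92 CPM (SD, n = 7). Of the marker scores, that of cartilage cells had the highest r with Esr1 over all libraries, 0.82 (0.66 after subtraction of group means, 0.72 without the 2 libraries farthest from the Esr1 median), but 0.37 within the 7 BMAd-DTA mice. The tendon and fibroblast score had an r with Esr1 of 0.46 over all libraries, 0.35 after subtraction of group means, 0.86 without those 2 libraries and 0.90 within the BMAd-DTA mice, so which score led depended on the libraries used. Summed tendon and fibroblast markers were at 459 to 759 CPM in controls and 564 to 708 CPM in BMAd-DTA mice. Summed chondrocyte markers were at 457 to 728 CPM in controls and 789 to 977 CPM in BMAd-DTA mice, with 8 of 9 tested markers higher, 0 passing in edgeR, 3 at an unadjusted p under 0.05 and 1, Col2a1, in DESeq2. Over all genes tested the unadjusted and DESeq2 shares were 16.4% and 5.1%. The part of these markers in the Esr1 difference was not tested. The genes most like Esr1 were Hsd17b10 (r = 0.904), Cog6 (r = 0.903) and Rhbdd2 (r = 0.900).

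Of the 22 genes listed for the oestrogen system 12 were tested, and Esr2, the other nuclear oestrogen receptor, was not analysed here. With adjustment edgeR called 0, 2 were higher and 1 lower at an unadjusted p under 0.05, and the median log2 fold change was 0.042. DESeq2 called Igfbp4 as higher and Nrip1 as lower. For comparison, 16.4% of all 16496 genes tested passed at that unadjusted threshold and 5.1% in DESeq2. Igfbp4, an oestrogen-responsive IGF-binding protein gene, was at 844 ± 204 CPM in controls and 1219 ± 196 CPM in BMAd-DTA mice (SD, with n = 4 and n = 7). Nrip1, a corepressor that binds oestrogen receptors and is also active in fat cells, had an adjusted p = 0.0799 in edgeR. Its level was 75.4 ± 13.7 CPM in controls and 55.3 ± 5.85 CPM in BMAd-DTA mice (SD, with n = 4 and n = 7). All 7 were below every control, where the groups did not overlap for 2.81% of all genes tested. Pgr, the progesterone receptor gene, had the smallest log2 fold change of the list, -0.74, and Greb1, another target of Esr1, had -0.74 as well, with an adjusted p = 0.533 and an adjusted p = 0.463 in edgeR. Both values rest largely on Control replicate 3, with 3.31 CPM of Pgr and 15.8 CPM of Greb1, where the other controls had 0.77 to 1.97 and 3.89 to 7.42 CPM. Gper1, a membrane receptor for oestrogen, was at 4.31 ± 0.81 and 5.47 ± 1.56 CPM (SD, with n = 4 and n = 7).

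Nr3c1, the glucocorticoid receptor gene (ENSMUSG00000024431), varied little among controls, at 131, 139, 136 and 133 CPM. In BMAd-DTA mice its level was 109 at the lowest, 124 at the median and 138 CPM at the highest. Below every control were 6 of the 7 BMAd-DTA mice, replicate 1 by under 1 CPM, and replicate 7 was within the control range. The log2 fold change was -0.13 with a standard error of 0.063, a 95% confidence interval of -0.26 to 0.0084 and an adjusted p = 0.332 in edgeR's quasi-likelihood test. The two-sided exact permutation test of the means, 135 ± 3.31 CPM (SD, n = 4) and 123 ± 9.29 CPM (SD, n = 7), gave p = 0.0424. The genes most like Nr3c1 were Rlf (r = 0.947), Zfp638 (r = 0.943) and Fgd4 (r = 0.926).

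All 22 genes of the glucocorticoid list were tested (median log2 fold change -0.020). Of these, 0 passed in edgeR after adjustment, 2 at an unadjusted p under 0.05 and 0 in DESeq2. The last 2 counts stand beside 16.4% and 5.1% of all 16496 genes tested. Fkbp5, a chaperone gene that the receptor induces, was at 56.5 ± 5.04 CPM in controls and 63.5 ± 11.4 CPM in BMAd-DTA mice (SD, with n = 4 and n = 7). Klf9, another target, was at 44.9 ± 6.74 and 44.2 ± 6.84 CPM. Hsd11b1, whose enzyme regenerates active glucocorticoid in the cell, was at 33.8 ± 3.68 and 33.4 ± 6.28 CPM. Hsd11b2, whose enzyme inactivates it, had the largest log2 fold change of the list, 1.02, from 9 to 56 counts per library and an adjusted p = 0.217 in edgeR. The smallest was that of Klf15, -0.41, again with its highest value, 9.57 CPM, in Control replicate 3, against 3.79 to 6.61 CPM in the other controls. Nr3c2, the mineralocorticoid receptor that binds the same steroids, was at 8.39 ± 1.30 CPM in controls and 6.86 ± 0.98 CPM in BMAd-DTA mice (SD, with n = 4 and n = 7), with an adjusted p = 0.326 in edgeR.

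Insr, the insulin receptor gene (chromosome 8, 3122061 to 3279617 of GRCm38, minus strand, ENSMUSG00000005534), was at 65.1, 70.0, 74.6 and 66.4 CPM in controls. The BMAd-DTA values ran from 56.6 to 70.8 with a median of 62.9 CPM, and 4 of 7 were below every control while 3 were among them. The means were 69.0 ± 4.22 CPM (SD, n = 4) and 63.4 ± 5.18 CPM (SD, n = 7), and the log2 fold change was -0.12 with a standard error of 0.072, a 95% confidence interval of -0.28 to 0.032 and an adjusted p = 0.419 in edgeR's quasi-likelihood test (two-sided exact permutation p = 0.109). Without Control replicate 3 the log2 fold change was -0.080. With the osteoblast score as a covariate it was -0.27, again without passing the test. Most like Insr were Tma16 (r = 0.894), 4932438A13Rik (r = 0.874) and Ppm1a (r = 0.867).

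Igf1r, the IGF1 receptor that signals through the same adaptors, was at 112 ± 8.16 CPM in controls and 103 ± 9.83 CPM in BMAd-DTA mice (SD, with n = 4 and n = 7), with an adjusted p = 0.529 in edgeR. Of 26 genes listed for insulin signalling 25 were tested, and 18 of them were lower by their fitted levels in the BMAd-DTA group (median log2 fold change -0.088). The edgeR test called 0 after adjustment, and 1 was higher and 5 were lower at an unadjusted p under 0.05. Over all 16496 genes tested, 1301 were higher and 1407 lower at that threshold, and 5.1% were called by DESeq2. DESeq2 called 1, Slc2a4, the insulin-regulated glucose transporter of muscle and fat, at 35.8 ± 10.96 CPM in controls and 22.6 ± 5.28 CPM in BMAd-DTA mice (SD, with n = 4 and n = 7, log2 fold change -0.67, adjusted p = 0.131 in edgeR). The largest log2 fold change was 0.33, for Grb10, an inhibitory adaptor of Insr. The adaptor genes Irs1 and Irs2 were at 29.6 ± 6.69 and 66.5 ± 5.66 CPM in controls and at 36.4 ± 5.73 and 61.7 ± 8.97 CPM in BMAd-DTA mice (SD, with n = 4 and n = 7).

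Ghr, the growth hormone receptor gene (chromosome 15, 3317760 to 3583492 of GRCm38, minus strand, ENSMUSG00000055737), was the receptor with the lowest fitted level in BMAd-DTA mice relative to controls. Control levels were 88.2, 84.7, 161 and 62.1 CPM. BMAd-DTA levels were 38.2 at the lowest, 63.5 at the median and 85.4 CPM at the highest. The groups overlapped, since Control replicate 4 lay among the BMAd-DTA mice and only 3 of the 7 were below it. Control replicate 2, at 84.7 CPM, was also just under the highest BMAd-DTA mouse, replicate 5, at 85.4 CPM. Control replicate 3 stood far above every other library. The means were 99.1 ± 43.1 CPM (SD, n = 4) and 63.9 ± 15.5 CPM (SD, n = 7), the log2 fold change was -0.63 with a standard error of 0.24 and a 95% confidence interval of -1.14 to -0.12, and the adjusted p was 0.202 in edgeR's quasi-likelihood test. A two-sided exact permutation test gave p = 0.0667. Without Control replicate 3 the log2 fold change was -0.29, and with the erythroid marker score as a covariate it was -0.38. In the other direction, it was -0.80 without Control replicate 4 and -0.90 with the osteoblast score as a covariate.

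Over all libraries Ghr had its highest r with the markers of fat cells, 0.81 (0.70 after subtraction of group means, 0.80 without the 2 libraries farthest from the Ghr median) and a rho of 0.92. Other scores were higher on subsets of the libraries. Without those 2 libraries the erythroid score had an r of 0.87 (0.66 over all), and within the 7 BMAd-DTA mice the r was 0.92 for macrophage markers (0.44 over all), 0.89 for endothelial markers and 0.76 for adipocyte markers. Of the 17 adipocyte markers tested 0 were higher and 17 lower by their fitted levels, and 1 of them, Retn, passed in edgeR. DESeq2 called 4 of them, beside 5.1% of all genes tested. The sum of the adipocyte markers was 1503 to 2454 CPM in controls and 709 to 1747 CPM in BMAd-DTA mice. Control replicate 3, the library with the highest Ghr, also had the highest sum of adipocyte markers, 2454 CPM, and of skeletal muscle markers, 1674 CPM against 45.9 to 1276 CPM in the others. Relative to the adipocyte score, Ghr was higher in BMAd-DTA mice by 0.48 on the log2 scale, with 3 of 7 above every control. The part of these cells in the Ghr difference was not tested. The endothelial score had an r of 0.72 with Ghr (0.71 after subtraction of group means), with summed markers of 800 to 862 CPM in controls and 625 to 890 CPM in BMAd-DTA mice. Most like Ghr were Abcc9 (r = 0.936), Atp9a (r = 0.927) and Tenm4 (r = 0.920).

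Of the 19 growth hormone signalling genes 17 were tested, with a median log2 fold change of -0.10. At an unadjusted p under 0.05, 7 were lower and none was higher, beside 1407 lower and 1301 higher of all 16496 genes tested. After adjustment none passed in edgeR or in DESeq2. Among these 7 were Jak2, the kinase bound to Ghr, at 145 ± 14.4 CPM in controls and 125 ± 7.98 CPM in BMAd-DTA mice, and the transcription factor genes Stat5a, at 85.6 ± 16.3 and 68.6 ± 7.72 CPM, and Stat5b, at 132 ± 2.97 and 119 ± 8.10 CPM (SD, with n = 4 and n = 7). Igfals, whose product carries IGF1 in the circulation, had the smallest log2 fold change, -0.95, from 20 to 97 counts per library and with an adjusted p = 0.149 in edgeR. Igf1, the main target of growth hormone, was at 88.8 ± 10.4 and 79.9 ± 14.3 CPM, and Socs2, a feedback inhibitor with the largest log2 fold change of the list, 0.27, at 27.5 ± 10.01 and 33.0 ± 6.84 CPM (SD, with n = 4 and n = 7). Prlr, the related prolactin receptor, was at 5.34 ± 1.73 and 3.32 ± 1.45 CPM (SD, with n = 4 and n = 7), with an adjusted p = 0.297 in edgeR.

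Thra, which encodes thyroid hormone receptor alpha (chromosome 11, 98740638 to 98769006 of GRCm38, plus strand, ENSMUSG00000058756), had almost the same level in both groups. Controls had 76.8, 86.5, 87.5 and 75.4 CPM. The BMAd-DTA mice had 77.8 at the lowest, 80.7 at the median and 93.7 CPM at the highest, and 6 of the 7 were within the control range. The log2 fold change was 0.017 with a standard error of 0.068 and a 95% confidence interval of -0.13 to 0.16 (adjusted p = 0.936 in edgeR's quasi-likelihood test, two-sided exact permutation p = 0.836). As a ratio of levels, the interval runs from 0.914 to 1.12. Thra shares 263 exon bases with Nr1d1, a clock gene on the opposite strand, and 14.8% of the stranded reads at Thra were on that strand, against 0.088% to 0.48% for the other 7 receptors. The counts used are those of the Thra strand. Of the marker scores, that of skeletal muscle had the highest r with Thra, 0.61 (0.66 after subtraction of group means), and 0.43 without the 2 libraries farthest from the Thra median, where the osteoclast score had 0.44. Most like Thra were Igkv6-14 (r = 0.906), Mapk7 (r = 0.891) and Casz1 (r = 0.887).

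The thyroid hormone list had 20 genes, 15 of them tested, with a median log2 fold change of -0.12. There too edgeR called 0 after adjustment. At an unadjusted p under 0.05, 1 was higher and 5 were lower, beside 1301 higher and 1407 lower of all 16496 genes tested. Where DESeq2 called 5.1% of all genes tested, it called 2 of this list, both as lower. These are Slc16a10, a transporter of thyroid hormone and aromatic amino acids, at 143 ± 30.8 CPM in controls and 102 ± 15.9 CPM in BMAd-DTA mice, and Tshr, the receptor of thyrotropin, at 15.6 ± 3.97 and 8.03 ± 3.47 CPM (SD, with n = 4 and n = 7, log2 fold change -0.96, adjusted p = 0.148 in edgeR). Slc7a8, another transporter, had the largest log2 fold change, 0.29. Thrb, the second thyroid hormone receptor, was at 8.05 ± 1.29 CPM in controls and 8.29 ± 1.28 CPM in BMAd-DTA mice (SD, with n = 4 and n = 7). Dio2, whose enzyme activates thyroid hormone in tissues, was at 21.4 ± 3.37 and 19.5 ± 3.60 CPM (SD, with n = 4 and n = 7).

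Rxra (chromosome 2, 27676440 to 27762957 of GRCm38, plus strand, ENSMUSG00000015846) had 77.7, 76.4, 89.6 and 72.7 CPM in controls. In BMAd-DTA mice it ran from 69.7 over a median of 86.5 to 92.0 CPM, with 3 of the 7 above every control and 2 below every control. The means were 79.1 ± 7.34 CPM (SD, n = 4) and 83.7 ± 9.72 CPM (SD, n = 7), and the log2 fold change of 0.082 had a standard error of 0.094, a 95% confidence interval of -0.12 to 0.29 and an adjusted p = 0.723 in edgeR's quasi-likelihood test (two-sided exact permutation p = 0.412). The 2 lowest libraries, BMAd-DTA replicates 2 and 7, at 69.7 and 70.2 CPM, were also the 2 lowest in summed adipocyte markers, at 760 and 709 CPM, and in summed endothelial markers, at 689 and 625 CPM. Over all 11 libraries the r of Rxra was highest with the endothelial score, 0.70 (0.83 after subtraction of group means, 0.34 without those 2 libraries), followed by the osteoclast score, 0.67 (0.67 and 0.75), the macrophage score, 0.60 (0.60 and 0.37), and the adipocyte score, 0.46 (0.87 and -0.20). Most like Rxra were Notch4 (r = 0.939), Meis3 (r = 0.910) and Dock6 (r = 0.905).

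Of the 16 genes that pair with Rxra or resemble it, 12 were tested, with a median log2 fold change of -0.020. None passed in edgeR after adjustment, and 2 were higher and 1 was lower at an unadjusted p under 0.05, beside 16.4% of all 16496 genes tested. DESeq2, which called 5.1% of all genes tested, called 1 of the list, the retinoic acid receptor gene Rarg. It was at 85.2 ± 8.96 CPM in controls and 102 ± 7.29 CPM in BMAd-DTA mice (SD, with n = 4 and n = 7). Rxrb was at 67.5 ± 4.14 and 71.5 ± 5.90 CPM (SD, with n = 4 and n = 7). Rxrg, with the smallest log2 fold change, -0.63, had 10 to 41 counts per library, its highest level in Control replicate 3, and an adjusted p = 0.399 in edgeR. Nr4a2, an orphan receptor that can pair with Rxra and is induced by PTH, had the largest, 0.48, with an adjusted p = 0.223 in edgeR.

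**Figure D4:**
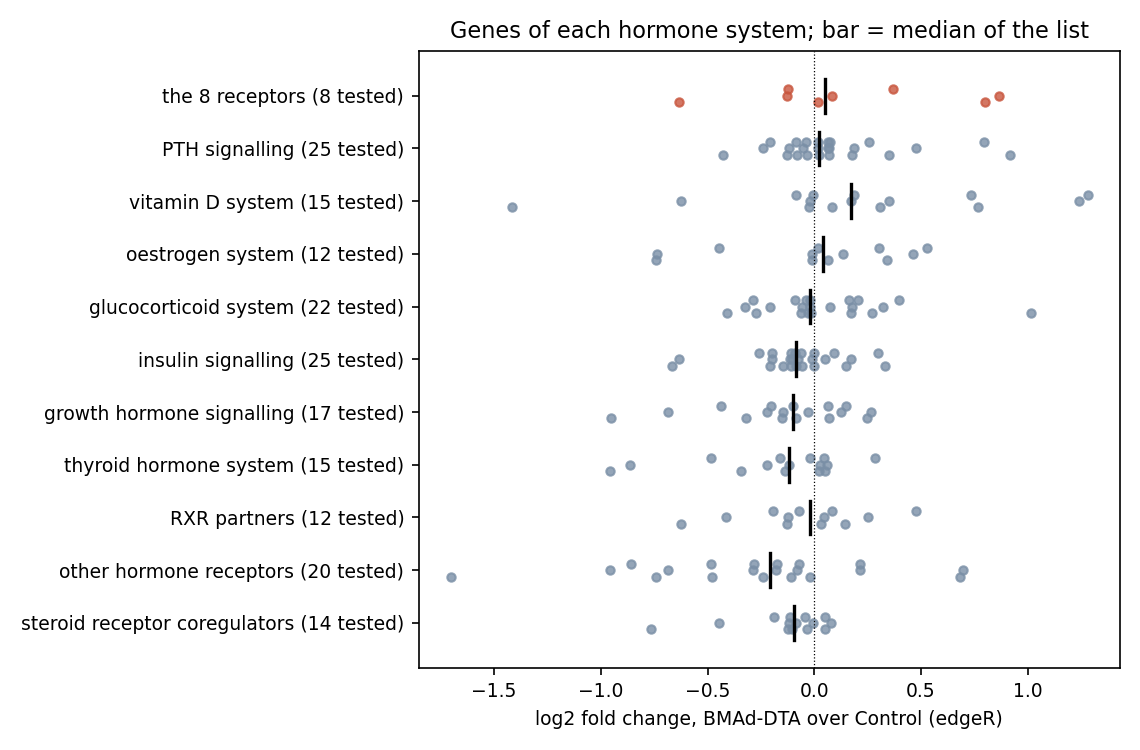
Log2 fold change (horizontal axis, BMAd-DTA over Control, edgeR) of each tested gene of the 8 receptors and of 10 lists of hormone genes, 1 point per gene, with a black bar at the median of the list. The medians of the 10 lists lie between -0.21 and 0.17, and no point passed edgeR's test after adjustment.

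Levels of different receptors were compared as CPM per kilobase of exon, with the exons of all annotated transcripts of a gene merged. On this scale Pth1r had the highest mean in controls, 20.04, followed by Thra at 17.7, Nr3c1 at 17.5, Rxra at 14.5, Ghr at 10.9, Vdr at 7.62, Insr at 5.02 and Esr1 at 1.08 CPM per kilobase. Pth1r was above Thra in 3 of 4 control libraries and Thra above Nr3c1 in 2 of 4, so the order of the first 3 did not hold in each mouse. Nr3c1 was above Rxra in all 4, Rxra above Ghr in 3, and the order of Ghr, Vdr, Insr and Esr1 held in all 4. In BMAd-DTA mice the means were 36.6 for Pth1r, 17.9 for Thra, 16.04 for Nr3c1, 15.3 for Rxra, 13.2 for Vdr, 7.06 for Ghr, 4.61 for Insr and 1.39 for Esr1 CPM per kilobase. There Pth1r was above Thra in 7 of 7 libraries and Vdr above Ghr in 7 of 7, the pair that stood in the opposite order in the 4 controls. Nr3c1 and Rxra kept their order in 4 of 7.

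**Figure D5:**
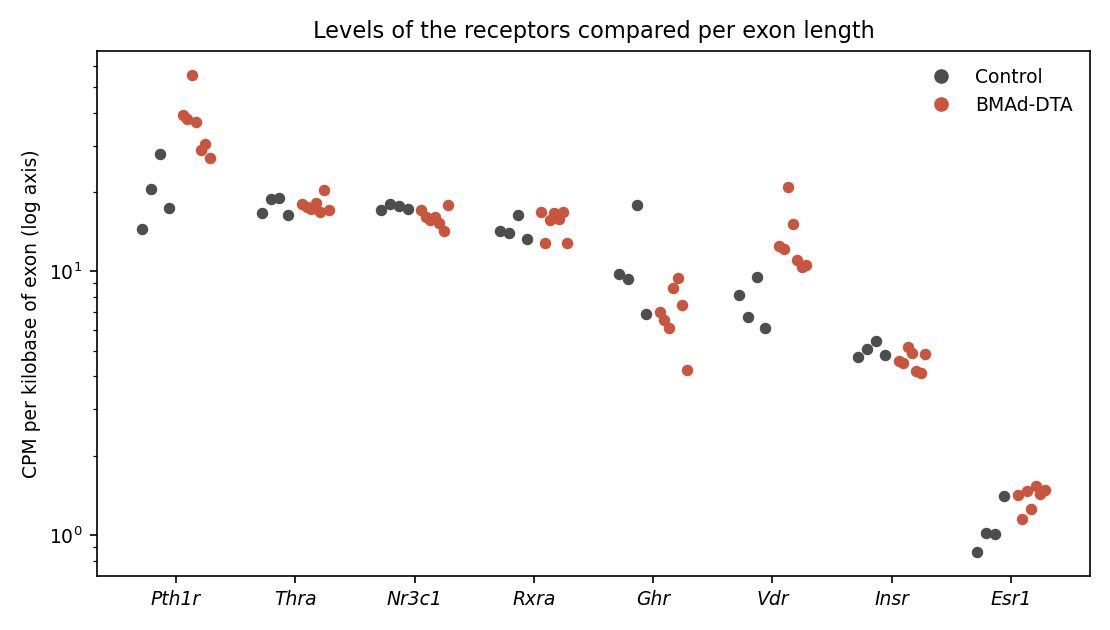
CPM per kilobase of merged exons (vertical axis, log scale) of each receptor, 1 point per library, Control in grey and BMAd-DTA in red, ordered by the control mean. Vdr and Ghr change places between the groups, and Esr1 lies lowest in both.

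Ratios of these levels within a library show how the pairs that act together stood. Rxra per kilobase was 1.73 to 2.18 times Vdr in controls and 0.746 to 1.62 times in BMAd-DTA mice. All 7 BMAd-DTA mice were thus below every control, and in 1 of them, replicate 3, Vdr was the higher. This ratio is no separate result, since Vdr alone did not overlap between the groups and Rxra had a log2 fold change of 0.082. The share of other gene pairs with such a separation was not computed. Rxra stood at 0.649 to 0.987 times Rxrb, Thra at 13.0 to 21.9 times Thrb, Nr3c1 at 11.2 to 19.3 times Nr3c2, and Insr at 0.641 to 0.895 times Igf1r over all 11 libraries, with the groups overlapping in each case. The ratio of Pth1r to Vdr was 1.77 to 3.06 in controls and 2.45 to 3.12 in BMAd-DTA mice, with overlapping groups.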

How the data were processed

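Strand-specific mRNA sequencing of whole distal tibiae gave 1 library per mouse. The authors checked reads with FastQC 0.11.9 and aligned them to mm10 with STAR. They deposited the counts of read pairs per gene, without normalization, both library by library and merged in 1 table, and ran DESeq2 on genotype. The annotation release is not given in the sources used here. Gene positions and exon lengths were joined from GENCODE on GRCm38, the assembly of mm10 (99.9% of identifiers matched), and start windows from RefSeq on GRCm38.p6.

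The group test was the quasi-likelihood F-test of edgeR 4.0.16 under R 4.3.3, with genotype as its only term, TMM scaling and the filterByExpr filter, and a gene was called at an adjusted p (Benjamini-Hochberg, 16496 genes) under 0.05. As standard error served the log2 fold change over the square root of F. The edgeR steps were tested on simulated data. Log2 CPM for scores used a prior count of 2. Exact permutation tests used all 330 splits in scipy 1.17.1, whose p is unadjusted. P-values measure the spread between mice.

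Replicates were numbered in the order of the samples. The alternatives were DESeq2 1.42.0, limma-voom (limma 3.58.1), a robust fit, 3 other scalings, 2 other filters, the per-library counts of 55401 genes, removal of 26 globin and mitochondrial genes, 3 marker scores as covariates, and each mouse left out. The receptors and the gene lists were chosen with earlier results of these data known, so no list is independent evidence.

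The text names the receptors, the partner and target genes set for each hormone, the tested genes at both ends of each list by log2 fold change, any gene of a pathway list that passed edgeR's test, and for each receptor the 3 genes most like it by Pearson r. Further genes of a list, such as those DESeq2 called, Jak2 and Stat5, were named after their values were seen.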

Additional observations from a re-analysis of the deposited data

Results flagged for a closer look

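In each of the 16 sets of values, 8 receptors in 2 groups, the highest and lowest library were compared with the others by Dixon's criterion, and 2 stood apart. Chance alone gives about 1 such set in 20. Pth1r was at 163 CPM in BMAd-DTA replicate 3, where the next highest BMAd-DTA mouse had 114 CPM, a gap of 0.579 of the group's range against a critical value of 0.568. The same library had the highest Vdr of all, 118 CPM, and the highest sum of osteoblast markers, 41764 CPM, and without it the log2 fold changes were 0.74 for Pth1r and 0.65 for Vdr. Thra was at 93.7 CPM in BMAd-DTA replicate 6, where the next highest had 83.9 CPM, a gap of 0.618 of the range, and without it the log2 fold change of Thra was -0.017.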

How the results depend on the processing

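The alternatives were 13 other settings and 11 fits that each left out 1 mouse. The number of receptors called was 0 in edgeR and in all other settings except DESeq2, where it was 2 (Pth1r and Vdr), and it ranged from 0 to 1 with mice left out, the 1 being Pth1r without Control replicate 3. At an unadjusted p under 0.05 it was 2 with the osteoblast score as a covariate, Ghr and Insr, with Pth1r, Vdr and Esr1 no longer among them, and 3 to 5 in every other setting. The osteoblast score did not overlap between the groups, so that fit cannot tell it apart from genotype. Over all genes, edgeR called 13, DESeq2 841, limma-voom 20, the robust fit 32, RLE scaling 20, the skeletal muscle score as a covariate 3, and the erythroid score and the osteoblast score, added after seeing the data, 0 each (2003 and 625 at an unadjusted p under 0.05). With mice left out, this count ran from 0, without Control replicates 1 or 2 or BMAd-DTA replicates 1 or 6, to 292, without Control replicate 3, and it was 89 without Control replicate 4, 8 without BMAd-DTA replicate 3 and 3 without BMAd-DTA replicate 4. The cause of these shifts was not tested.

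The direction of Pth1r, Vdr, Esr1, Ghr, Nr3c1, Insr and Rxra was the same in all 24 alternatives. Thra changed sign with the osteoblast score as a covariate, to a log2 fold change of -0.051, and without Control replicate 1, Control replicate 4 or BMAd-DTA replicate 6, with a range of -0.020 to 0.055 over mice left out. That range was 0.74 to 1.07 for Pth1r, 0.65 to 0.93 for Vdr, 0.28 to 0.53 for Esr1, -0.80 to -0.29 for Ghr, -0.16 to -0.10 for Nr3c1, -0.15 to -0.080 for Insr and 0.043 to 0.15 for Rxra. Counting error at the lowest of all 11 libraries was 6.84% for Esr1 and 2.32% to 3.93% for the other receptors. It was under the coefficient of variation between mice in each group. The closest case was Nr3c1, with 2.32% in BMAd-DTA replicate 6, its lowest library, against a coefficient of variation of 2.46% among controls. No paired analysis was possible because the labels match no control mouse to a BMAd-DTA mouse.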

Other observations

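Receptors of other hormones were mostly lower in BMAd-DTA tibiae by their fitted levels. Of 30 listed, 20 were tested and 16 of these had a lower fitted level, with a median log2 fold change of -0.21 beside 0.0018 over all genes tested. Adjusted, 0 passed in edgeR's quasi-likelihood test. At an unadjusted p under 0.05, 1 was higher and 9 were lower, beside 1301 higher and 1407 lower of all 16496 genes tested. In DESeq2, which called 5.1% of all genes tested, 3 of these receptors were called, all lower. These were Calcrl, a receptor of adrenomedullin and CGRP found on vessels, at 38.1 ± 3.61 CPM in controls and 31.3 ± 2.14 CPM in BMAd-DTA mice, Tshr, and Epor, the erythropoietin receptor, at 89.4 ± 21.1 and 64.2 ± 11.4 CPM (SD, with n = 4 and n = 7). Adrb3, the beta adrenergic receptor of fat cells and also 1 of the adipocyte markers, was at 1.31 ± 0.27 CPM in controls and 0.40 ± 0.27 CPM in BMAd-DTA mice (SD, with n = 4 and n = 7). All 7 were below every control, where 2.81% of all genes tested had no overlap in either direction. Adrb3 had the smallest log2 fold change, -1.70, with 0 to 29 counts per library and an adjusted p = 0.141 in edgeR. The largest was that of Calcr, the calcitonin receptor of osteoclasts, 0.70, from 3 to 33 counts per library, the highest level in BMAd-DTA replicate 3, and with an adjusted p = 0.637 in edgeR. Erythroid markers, the cells known for Epor, had a lower fitted level for 12 of 13 tested, with sums of 15648 to 35116 CPM in controls and 20818 to 37208 CPM in BMAd-DTA mice.

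Coregulators shared by the nuclear receptors were all tested, 14 of 14, and 11 had a lower fitted level, with a median log2 fold change of -0.095. Again 0 passed in edgeR after adjustment, 2 were lower at an unadjusted p under 0.05, and DESeq2 called Nrip1 only. Of all 16496 genes tested, 16.4% passed at that unadjusted threshold and 5.1% in DESeq2. Ppargc1a, a coactivator of energy metabolism, had the smallest log2 fold change, -0.77, at 2.49 ± 1.08 CPM in controls and 1.46 ± 0.63 CPM in BMAd-DTA mice (SD, with n = 4 and n = 7). Its highest value, 4.02 CPM, was that of Control replicate 3, and the other controls had 1.66 to 2.47 CPM. Ppargc1b had the largest, 0.078.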
